A study of Mus musculus with 6 samples.

Results

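The genes described here are the 1000 with the highest ratio of POLR2A (RPB1) ChIP-seq reads in the promoter to reads in the gene body in mouse neural precursor cells (NPCs). They were chosen by summed read counts over all 6 libraries: a gene needed at least 300 promoter reads and 60 gene body reads, symbols of the form Gm plus a number were dropped, and the remaining 9106 genes were ranked by promoter sum over gene body sum. The 1000 are 8.26% of the 12107 genes in the series and 11.0% of the eligible ones, and are called high-ratio genes below. The study asked whether loss of ARMC5 changes where RNA polymerase II (Pol II) sits on genes. There were 3 libraries of WT cells and 3 of Armc5 knockout (KO) cells, numbered 1 to 3 in each genotype, from fetuses of day e13.5. The strain label of both genotypes is 129 sv X CD1, while the study describes its KO mice on a CD1 x C57BL/6 background. The cells were neurospheres grown from dissected ganglionic eminences with EGF and used after the second passage, so both groups are cultured progenitors and not embryonic tissue. No further allele or agent is given in the labels. The Armc5 gene itself was not analysed here.

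ARMC5 is a substrate adaptor of a CUL3 ubiquitin ligase that acts on POLR2A, the largest and catalytic subunit of Pol II. On many active genes Pol II pauses shortly after initiation, held by NELF and DSIF, until the kinase P-TEFb releases it into elongation, so that ChIP signal is highest around the start site. Immediate early genes, heat shock genes and housekeeping genes with divergent promoters are classic examples of genes with a strong promoter peak. The antibody used here binds the N-terminal domain of POLR2A and so does not separate paused from elongating Pol II by its phosphorylation.

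Reads had been counted in 3 windows per gene: the promoter (the 500 bases that start 400 before and end 100 after the start site, TSS), the gene body (from 100 bases inside the TSS to 100 bases before the transcript end site, TES) and the TES region (from 100 bases before to 2000 beyond the TES). Counts over all windows summed to between 14528870 and 25199455 per library. The share of them in promoters was 10.9%, 11.2% and 6.04% in WT replicates 1, 2 and 3 and 12.2%, 11.0% and 6.88% in KO, so the libraries of pair 3 had the weakest promoter signal in both genotypes. Of markers of the culture, 11 neural precursor genes were listed (Sox2, Pax6, Nes and Vim among them) with a summed gene body level of 288 to 588 CPM (reads scaled to the TMM-adjusted library total) in WT and 329 to 619 in KO. The 5 neuronal genes listed, Dcx and Tubb3 among them, summed to 969 to 1317 CPM in WT and 997 to 1230 in KO. S100b was the single astrocyte marker listed, at 10.3 to 13.1 CPM over all libraries, Kdr the single endothelial one, at 16.2 to 45.4 CPM, and no microglia, blood or mesenchymal marker was in the table. The oligodendrocyte lineage markers Mbp, Olig1 and Olig2 summed to 154 to 334 CPM. Gene body reads are not RNA, and these sums were not divided by gene length. They therefore do not give the shares of cell types. Only Sox2 and Hes5 of all these markers were high-ratio genes.

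The ratio fell from 6.04 for Dbil5, an acyl-CoA-binding protein known from testis, to 0.666 for Nme3, a nucleoside diphosphate kinase. Its median was 0.902 in the high-ratio genes and 0.182 in the 8106 other eligible genes. Of the 1000, 376 had a ratio above 1, 42 above 2 and 5 above 4. The cutoff fell in a continuous range: Slc20a1 (0.667), Tubg1 (0.666) and Nme3 (0.666) lay just inside, and Cebpb (0.665), Gdpgp1 (0.665) and Nsun5 (0.664) just outside. After Dbil5, the highest ratios belonged to the histone gene Hist2h2aa2 (4.91), Ttc39d (4.82), Fam122a (4.67), Rtl10 (4.44), 4930404H24Rik (3.71), Rpl36al (3.37), A830005F24Rik (3.36), 1810009A15Rik (3.19) and Rtl8a (3.11). These values chose the genes and are a description, with no test.

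The gene body sums and lengths differed more between the high-ratio genes and the others than the promoter sums did. The median promoter sum was 1487 reads in the high-ratio genes and 909 in the others, whereas the median gene body sum was 1510 against 5182 reads. The TES sums were close, with medians of 503 and 455. By the GENCODE vM21 annotation (GRCm38), which matched 995 high-ratio and 8062 other genes, the median gene body window was 4440 bases in the high-ratio genes and 28250 in the others. Gene bodies under 5000 bases made up 55.5% of the former and 6.18% of the latter, and those over 20000 bases 3.02% and 62.4%. A single exon was annotated for 137 of 995 (13.8%) against 77 of 8062 (0.955%), and the median number of exons was 4 against 10.

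Per base of window, the high-ratio genes were not the more promoter-loaded ones. Dividing each count by its window length gave a median promoter to gene body ratio of 8.82 in the high-ratio genes and 10.0 in the others, with percentiles 10 to 90 running from 3.17 to 23.3 and from 3.65 to 21.96. Of the 1000 highest genes by the ratio per base, 124 were high-ratio genes. The leaders per base were Ttc39d (99.1), Arl15 (72.1), 3110009E18Rik (68.4), Taf4 (67.2), Tcte3 (62.6), Ccdc171 (62.2), Ccdc148 (59.998) and Shld2 (59.3), of which only Ttc39d and Tcte3 were high-ratio genes. Median densities in WT replicate 1 were 28.2 promoter CPM per kb in the high-ratio genes and 16.4 in the others, and 2.38 and 1.42 gene body CPM per kb, so both windows were denser. The description "most promoter-loaded" therefore holds for reads per window and not for reads per base.

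**Figure D1:**
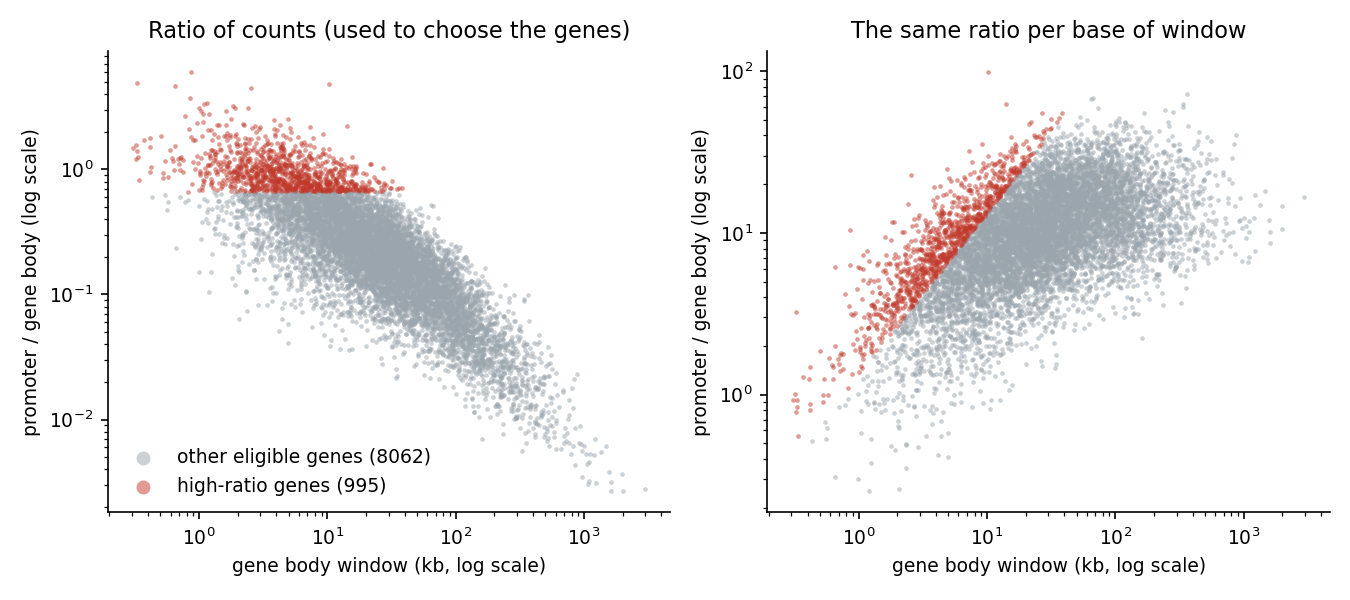
Promoter to gene body ratio of summed reads against gene body length for 995 high-ratio (red) and 8062 other eligible genes (grey), as counts (left) and per base of window (right), all axes logarithmic. The red genes are those above the cutoff by construction on the left, and lie at short lengths (median 4440 bases) without standing higher on the right, where their median is 8.82 against 10.0.

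A second start site, counting only protein-coding and long non-coding genes here and below, often lay within the promoter window. An annotated start on the opposite strand fell there for 341 of 995 high-ratio genes (34.3%) and 1398 of 8062 others (17.3%), and a start of another gene on the same strand for 29 and 104. Reads in such a window cannot be assigned to either gene. Ttc39d shares its window with Srsf7, a splicing factor that was itself a high-ratio gene, Dbil5 with Gemin4, Rpl36al with Mgat2, Rtl10 with Gnb1l, A830005F24Rik with Zfp169 and 1810009A15Rik with Gm49416, so 6 of the 10 highest ratios include reads that may belong to a neighbour. Ttc39d is an example in numbers: its promoter held 57.4, 50.4 and 37.8 CPM in WT and 70.6, 43.4 and 35.2 in KO, while its gene body held 9.08, 10.6 and 12.8 CPM in WT and 9.39, 11.8 and 12.9 in KO. A start of another gene also lay in the TES region of 131 high-ratio genes (13.2%) and 722 others (8.96%).

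By lists of genes, the high-ratio genes included 26 of 33 eligible replication-dependent histone genes, which supply chromatin in S phase, 21 of 42 immediate early genes, 29 of 70 genes of the respiratory chain and ATP synthase, 27 of 76 cytosolic and 22 of 68 mitochondrial ribosomal protein genes, 9 of 36 proteasome and 13 of 60 spliceosome genes. They also held 29 of 302 zinc finger genes (9.60%), 5 of 54 centromere and centrosome genes (9.26%) and 0 of 53 DNA repair genes. Other counts were 5 of 21 for mitochondrial import, 7 of 27 for Mediator, 7 of 40 for TFIID and general factors, 8 of 27 for RNA polymerase subunits, 9 of 49 for ribosome biogenesis, 5 of 41 for DNA replication, 6 of 49 for heat shock proteins, 3 of 19 for p53 targets and 2 of 9 for neural precursor markers. Of 25 Pol II pausing and elongation genes, 4 were high-ratio genes: Hexim1 (an inhibitor of P-TEFb), Nelfe (a NELF subunit), Supt4a (a DSIF subunit) and Ssrp1 (of the histone chaperone FACT). No gene of the small RNA list was eligible. The share over all eligible genes was 11.0%, and each list's share was not tested.

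Promoter sequence was available for 813 high-ratio and 6215 other eligible genes, as the RefSeq window from 250 bases before to 50 after the start (GRCm38.p6). The 2 groups had near-equal GC content (median 62.3% and 62.7%) and CpG observed over expected (0.849 and 0.825). A TATA box (TATAAA between 40 and 20 bases upstream, either strand) was found in 2.83% of high-ratio promoters (95% Wilson interval 1.89 to 4.21) and 0.628% of the others, against 2.31% of all 32851 promoters of the table. The ETS core CCGGAAG was in 30.4% (27.3 to 33.6) and 21.8%, against 8.86% of all promoters. The cAMP response element TGACGTCA was in 6.27% (4.80 to 8.15) and 3.70% (all promoters 1.79%), and the shorter TGACG, which the full element contains, in 42.3% and 36.0% (all 20.8%). CCAAT stood in 44.5% and 40.3% (all 37.4%), the GC box GGGCGG in 71.1% and 73.0% (all 35.7%), the octamer ATTTGCAT in 2.21% and 1.16% (all 1.74%), the YY1 core AAGATGGC in 6.27% and 5.95% (all 2.75%) and the E-box CACGTG in 10.9% and 11.1% (all 7.15%). The NRF1 site stood in 19.8% and 17.5%, the ZNF143 site in 4.55% and 5.68%, and the CArG box of SRF in 1.35% and 1.16%. Each motif was searched on both strands of these 300 bases, a match is a description of letters and not a bound site, and promoters of neighbouring genes can overlap.

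The lists differed in these letters. Of 22 high-ratio histone promoters in the table, 19 held CCAAT and 6 a TATA box, and none the ETS core. Of 15 immediate early promoters, 3 held a TATA box, 8 CCAAT and 13 a GC box. Of 19 cytosolic ribosomal protein promoters, 1 held a TATA box and 5 the ETS core. Below are 6 promoters of genes whose values are described further on, each 300 bases read 5′ to 3′ on the strand of the gene. Pcdh8 and Cebpa belong to none of these lists, and no ribosomal protein promoter is shown. Capitals mark a TATA box in its position window and every CCAAT, GC box and cAMP response element on either strand, and the same letters outside the position window of the TATA box are left in lower case. That window counts from the RefSeq start, which lay 18 bases from the GENCODE start in Gadd45b and 19 in Hist1h4a. Counted from the GENCODE start, the lower-case TATAAA letters of Gadd45b would fall within it. Those of Hist1h4a, near the end of its sequence, lie downstream of either start. The counts of TATA boxes thus depend on the annotated start used.

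The promoter of Gadd45b, a growth arrest and DNA damage gene induced early by stress (chr10:80929841-80930140, plus strand), held 2 CCAAT and 1 GC box:
Gadd45b: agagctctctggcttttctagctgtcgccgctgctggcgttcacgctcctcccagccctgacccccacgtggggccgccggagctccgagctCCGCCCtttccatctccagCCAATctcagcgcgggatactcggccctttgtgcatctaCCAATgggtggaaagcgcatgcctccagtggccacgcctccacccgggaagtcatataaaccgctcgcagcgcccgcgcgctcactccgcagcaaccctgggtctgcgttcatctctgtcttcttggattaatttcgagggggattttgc
That of Rhob, a small GTPase of the immediate early class (chr12:8499960-8500259, minus strand), held 2 CCAAT, on opposite strands, and 1 GC box:
Rhob: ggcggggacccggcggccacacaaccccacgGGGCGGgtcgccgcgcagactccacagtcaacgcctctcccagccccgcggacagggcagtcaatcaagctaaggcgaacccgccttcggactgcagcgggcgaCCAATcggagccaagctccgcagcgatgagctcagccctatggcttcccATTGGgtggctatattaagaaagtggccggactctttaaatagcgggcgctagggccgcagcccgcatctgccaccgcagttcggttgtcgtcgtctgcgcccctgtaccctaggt
That of Hist1h1a, a linker histone named H1f1 in RefSeq (chr13:23763418-23763717, plus strand), held a TATA box, CCAAT and a GC box:
Hist1h1a: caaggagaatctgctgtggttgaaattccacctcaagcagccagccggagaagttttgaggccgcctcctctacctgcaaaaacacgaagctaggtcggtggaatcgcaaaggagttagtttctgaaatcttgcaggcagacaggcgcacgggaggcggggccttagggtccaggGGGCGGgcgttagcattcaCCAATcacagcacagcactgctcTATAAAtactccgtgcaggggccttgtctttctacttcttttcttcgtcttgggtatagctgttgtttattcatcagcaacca
That of Pcdh8, an activity-regulated protocadherin (chr14:79771263-79771562, minus strand), held a TATA box and CCAAT:
Pcdh8: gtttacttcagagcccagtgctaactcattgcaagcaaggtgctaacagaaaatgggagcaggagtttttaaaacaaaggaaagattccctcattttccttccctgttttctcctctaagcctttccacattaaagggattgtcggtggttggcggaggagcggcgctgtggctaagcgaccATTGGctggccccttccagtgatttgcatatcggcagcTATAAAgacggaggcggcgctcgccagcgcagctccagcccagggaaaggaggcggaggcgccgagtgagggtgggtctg
That of Cebpa, a transcription factor of myeloid and fat cell differentiation (chr7:35119043-35119342, plus strand), held a TATA box:
Cebpa: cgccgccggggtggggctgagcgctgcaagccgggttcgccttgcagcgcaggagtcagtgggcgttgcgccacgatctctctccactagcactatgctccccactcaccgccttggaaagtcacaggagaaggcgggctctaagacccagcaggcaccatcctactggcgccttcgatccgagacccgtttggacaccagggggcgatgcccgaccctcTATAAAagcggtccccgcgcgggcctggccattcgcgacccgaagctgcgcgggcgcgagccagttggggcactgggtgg
That of Hist1h4a, a core histone named H4c1 in RefSeq (chr13:23761200-23761499, minus strand), held CCAAT, 3 GC boxes and 2 cAMP response elements:
Hist1h4a: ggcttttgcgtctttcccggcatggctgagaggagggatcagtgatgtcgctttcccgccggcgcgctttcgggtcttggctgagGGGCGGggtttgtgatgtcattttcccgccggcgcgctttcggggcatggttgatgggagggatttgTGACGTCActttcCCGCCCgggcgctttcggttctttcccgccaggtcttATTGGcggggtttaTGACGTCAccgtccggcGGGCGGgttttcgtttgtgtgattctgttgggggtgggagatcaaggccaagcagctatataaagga

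The ratio was lowest in the libraries of pair 3 in both genotypes. The median ratio of the 1000 in WT replicates 1, 2 and 3 was 1.10, 1.02 and 0.673, and in KO 1.04, 0.881 and 0.506. In the other eligible genes it was 0.201, 0.207 and 0.102 in WT and 0.217, 0.210 and 0.0986 in KO. The high-ratio genes had the lower ratio in KO in all 3 pairs, and the other genes in pair 3 only. Ranking each library alone put between 743 (KO replicate 3) and 874 (WT replicate 2) of the 1000 in the library's own highest 1000, and 488 in that of all 6. Ranked on WT libraries alone, 933 of the 1000 were kept, and on KO libraries alone 949.

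Of all promoter reads, the high-ratio genes took 15.5%, 13.6% and 11.4% in WT and 15.1%, 12.8% and 9.08% in KO. Dropping the Gm-numbered genes from the total made these 16.1%, 15.1% and 14.9% in WT and 16.1%, 14.3% and 13.98% in KO. A single such entry, Gm10800, held from 1.71% of the promoter reads in WT replicate 1 to 31.4% in KO replicate 3. Of all gene body reads they took 1.85%, 1.74% and 1.16% in WT and 2.12%, 1.90% and 1.39% in KO, higher in KO in every pair. Of the TES reads they took 10.0%, 9.51% and 7.35% in WT and 10.3%, 9.54% and 8.20% in KO, again higher in KO in every pair.

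KO was compared with WT in a single limma-voom fit over all 36321 windows with the pair as a block, and a window was called at a Benjamini-Hochberg adjusted p under 0.1. The genes were ranked on sums over both genotypes, so the ranking did not use this contrast. The set and the gene lists were, however, chosen with earlier results of these data known. No spike-in or input was used here, so a log2 fold change is relative to the bulk of the windows. Over all 12107 genes the median was 0.03 in promoters, -0.01 in bodies and -0.08 at the TES.

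In the gene bodies, the high-ratio genes lay higher in KO. Their median log2 fold change was 0.14, with quartiles of 0.04 and 0.27, and 802 of 1000 (80.2%) were above 0, against a median of -0.02 and 43.5% above 0 in the other eligible genes. Within pairs 1, 2 and 3 the median was 0.13, 0.14 and 0.16, and in the other genes -0.03, 0.02 and -0.03. KO was above WT in all 3 pairs for 431 gene bodies (43.1%), where 13.7% of all genes were. Every KO library lay above every WT library for 99 (9.9%), where the share over all genes was 1.5%. At an unadjusted p under 0.05, 224 (22.4%) were higher and 1 lower, where 4.82% of all genes were higher and 3.59% lower. After adjustment 18 were called higher and 1 lower, against 0.173% and 0.033% of all genes called in those directions. These 19 are 76.0% of the 25 gene bodies called in the series. Without the pair as a block none was called, and leaving out pair 2 left 4, whereas leaving out WT or KO replicate 1 gave 60. Scaling each window type on its own (TMM per region) left 8 calls.

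**Figure D2:**
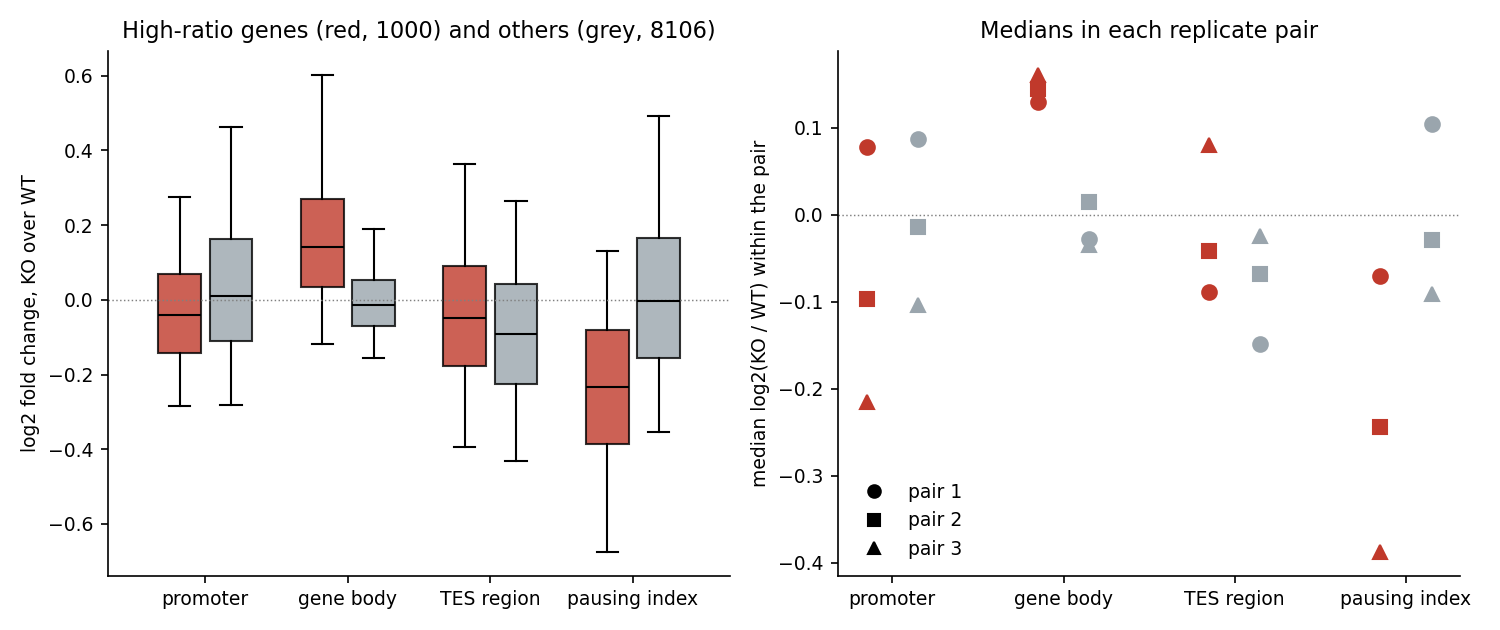
Log2 fold changes of KO over WT by window and for the pausing index in the high-ratio genes (red) and the other eligible genes (grey). Left, boxes span the quartiles with the median and whiskers from percentile 5 to percentile 95; right, the median within each replicate pair. The gene body medians of the high-ratio genes are above 0 in all pairs (0.13 to 0.16), and their promoter medians run from 0.08 to -0.22.

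Of the 19 gene bodies called, 11 came from the immediate early and histone lists and 8 from neither. Of them 7 were immediate early or stress genes of the list: Arc, Gadd45b, Rhob, Jund, Klf4, Ier3 and Ier2. Replication-dependent histones gave 4, Hist2h2aa2, Hist1h1a, Hist1h4c and Hist1h3a. The splicing factor gene Srsf7, the triglyceride synthesis enzyme gene Dgat2, the phosphate transporter gene Slc20a1, Pcdh8, Cebpa, the islet transcription factor gene Mafa and Rgs2, a regulator of G protein signalling, were the other genes called higher, and 9130023H24Rik was the gene called lower.

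Hist2h2aa2, a core H2A gene (chr3:96239749-96240276), had gene body levels of 1.47, 3.52 and 4.39 CPM in WT and 3.13, 22.4 and 21.5 in KO. KO was higher in all 3 pairs, but KO replicate 1 lay within the WT range, so the groups overlapped. Its log2 fold change was 2.29 ± 0.22 (SE, adjusted p = 0.00402, limma). It has a near-identical neighbour copy, so which copy gave the reads is uncertain. Arc, an activity-regulated cytoskeletal gene of neurons (chr15:74669083-74672570), had 10.5, 13.1 and 15.4 CPM in WT and 23.6, 21.8 and 34.6 in KO, with no overlap (1.01 ± 0.12, limma adjusted p = 0.0172). Gadd45b stood at 5.42, 11.6 and 6.09 CPM in WT and at 16.4, 21.0 and 14.1 in KO, again with no overlap (1.17 ± 0.15, limma adjusted p = 0.0336). Rhob gave 22.4, 25.2 and 20.3 CPM in WT and 35.8, 37.0 and 32.4 in KO (0.62 ± 0.09, limma adjusted p = 0.0395).

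The tightest groups were those of Cebpa, at 5.37, 6.09 and 5.52 CPM in WT and 10.2 in each KO library (0.84 ± 0.15, limma adjusted p = 0.0825). Hist1h1a had 5.86, 11.5 and 9.99 CPM in WT and 22.6, 20.6 and 19.6 in KO (1.24 ± 0.18), with KO nearly level and above every WT library. Dgat2, at 28862 bases the longest of these gene bodies, had 22.1, 28.9 and 35.9 CPM in WT and 39.4, 51.3 and 45.5 in KO (0.70 ± 0.10). Srsf7 had 34.2, 38.1 and 36.1 CPM in WT and 54.2, 49.3 and 52.2 in KO (0.52 ± 0.08). In each of these 4 genes the groups did not overlap, which 1.5% of all gene bodies showed in this direction. Pcdh8 had 3.22, 9.18 and 4.96 CPM in WT and 11.6, 16.6 and 10.1 in KO (1.18 ± 0.18). Mafa was the lowest in level, with 0.928, 1.82 and 2.44 CPM in WT and 3.06, 4.46 and 4.60 in KO (1.28 ± 0.23). The remaining genes called higher, Jund, Slc20a1, Klf4, Hist1h4c, Hist1h3a, Rgs2, Ier3 and Ier2, changed by 0.51 (Slc20a1) to 1.17 (Hist1h3a) on the log2 scale and were higher in KO in all 3 pairs. Among these, Jund, Ier3 and Ier2 overlapped between groups and paired libraries moved together: Jund had 31.7, 44.9 and 23.9 CPM in WT and 50.0, 57.6 and 41.6 in KO.

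**Figure D3:**
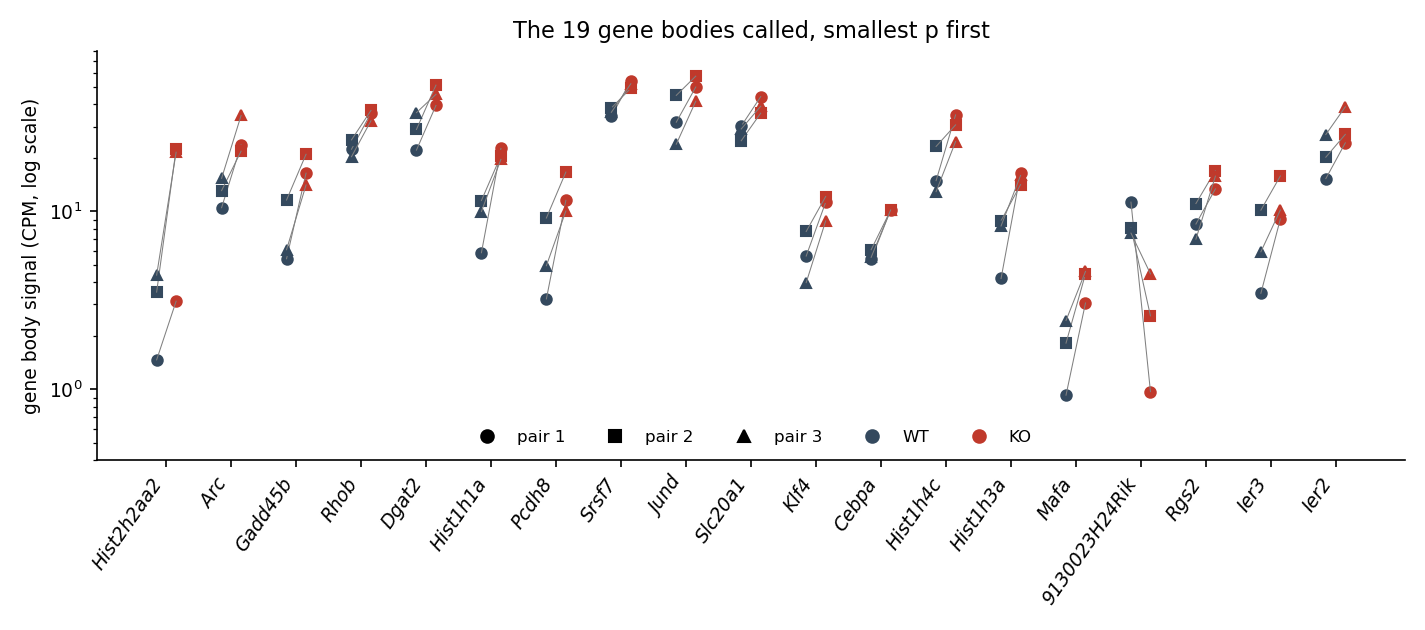
Gene body level (scaled CPM, log axis) of the 19 called high-ratio genes in each library, WT blue and KO red, with a line joining the libraries of a pair, in order of p. In 18 genes every line rises, by a log2 fold change between 0.51 and 2.29, and in 9130023H24Rik every line falls.

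The gene called lower, 9130023H24Rik (chr7:128234458-128238031, a single exon on the minus strand), fell in the gene body from 11.3, 8.07 and 7.56 CPM in WT to 0.972, 2.59 and 4.46 in KO (-1.98 ± 0.36, limma adjusted p = 0.0874). Its promoter held 388, 414 and 290 reads in WT and 0, 31 and 23 in KO (-4.43 ± 0.67, limma adjusted p = 0.0419), the single promoter called lower in the series. The annotated start of Armc5 lies within the body of this gene, so loss of template at the knocked-out locus and loss of Pol II cannot be told apart.

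By list, the gene body values were above 0 in all 26 histone genes, with a median log2 fold change of 0.64 and a range from 0.17 (Hist1h2bp) to 2.29 (Hist2h2aa2), where 4 were called. The 7 eligible histone genes outside the 1000 were also all above 0, with a median of 0.45. All 21 immediate early genes were above 0, with a median of 0.56 and a range from 0.03 (Id4) to 1.17 (Gadd45b), where 7 were called, and of the 21 outside the 1000, 17 were above 0 with a median of 0.14. The 13 spliceosome genes had a median of 0.24 with 12 above 0 and 1 called, Srsf7, and the 47 outside a median of 0.04. Beyond these lists no listed gene was called. Medians were 0.18 for 27 cytosolic ribosomal protein genes (25 above 0), 0.16 for 22 mitochondrial ones (19 above 0), 0.09 for 29 respiratory chain genes (20 above 0), 0.09 for 29 zinc finger genes (21 above 0), 0.26 for 9 ribosome biogenesis genes (7 above 0), 0.25 for 6 heat shock genes (6 above 0), 0.18 for 7 Mediator genes (7 above 0) and 0.17 for 9 proteasome genes (9 above 0). Of the smaller sets, 3 p53 targets had a median of 0.46 (3 above 0; Plk2 and Plk3 are also in the immediate early list), 4 pausing factor genes 0.18 (4 above 0), 5 DNA replication genes 0.21 (4 above 0), 8 polymerase subunit genes 0.11 (6 above 0), 7 TFIID and general factor genes 0.13 (6 above 0), 5 mitochondrial import genes 0.09 (5 above 0) and 5 centromere genes 0.04 (3 above 0). The background is the median of -0.01 over all genes. Leaving both the histone and the immediate early list out moved the median of the high-ratio gene bodies from 0.14 to 0.13.

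**Figure D4:**
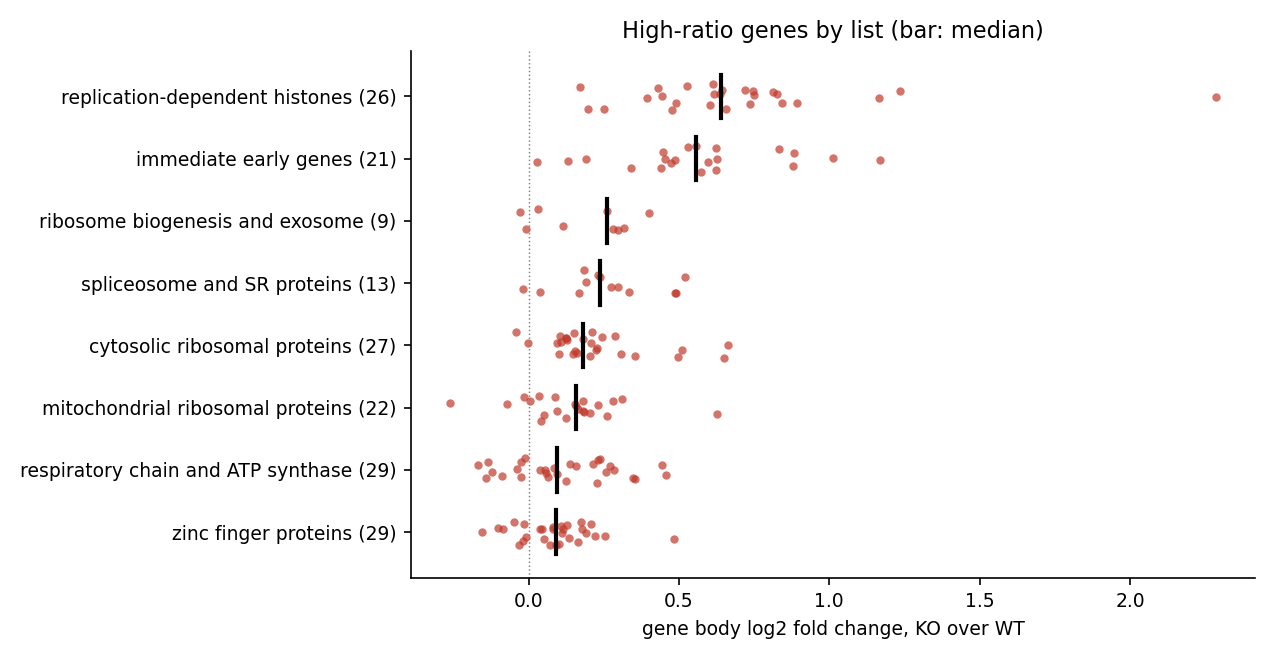
Gene body log2 fold change of KO over WT for the high-ratio genes of 8 lists (number of genes in brackets), 1 point a gene, with the median as a black bar; vertical scatter within a list carries no meaning. Histones (median 0.64) and immediate early genes (0.56) lie entirely to the right of 0, and zinc finger genes (0.09) close to it.

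None of the named housekeeping genes below was called. Rplp1, a ribosomal stalk protein gene, had 15.3, 9.10 and 7.80 CPM in WT and 22.2, 14.3 and 14.6 in KO, higher in every pair (0.65 ± 0.12, limma adjusted p = 0.101). Srsf2 (0.49 ± 0.10), Srsf6 (0.33 ± 0.11) and Nop56 (0.30 ± 0.10) were likewise higher in every pair without a call. The respiratory chain genes Ndufa7, Atp5h and Cox4i1 stood at 0.16 ± 0.10, 0.09 ± 0.14 and 0.09 ± 0.10. The 2 precursor markers differed little: Sox2, a pluripotency and neural stem cell factor, had 37.1, 22.4 and 7.88 CPM in WT and 38.4, 18.7 and 8.64 in KO, and Hes5, a Notch target, 36.6, 37.7 and 7.80 in WT and 43.0, 29.1 and 16.1 in KO. Both were lowest in the libraries of pair 3, in WT and KO alike.

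The gene body difference went with length and with rank. High-ratio genes with gene bodies under 1 kb had a median log2 fold change of 0.51 (45 genes), those of 1 to 2 kb 0.20 (134), of 2 to 5 kb 0.18 (373), of 5 to 10 kb 0.10 (263), of 10 to 20 kb 0.08 (150) and of 20 to 50 kb 0.01 (30). The other eligible genes of the same lengths had medians of 0.08 (10), 0.03 (56), 0.05 (432), 0.03 (930), 0.01 (1604) and -0.01 (2545), and -0.04 above 50 kb (2485). High-ratio genes thus lay above other genes of like length in every class that held both, though the ratio itself still differed within a class. In steps of 250 genes down the ranking the median was 0.22, 0.16, 0.11 and 0.07. Single-exon genes had a median of 0.36 (137 genes) against 0.13 for those with several exons (858), and genes with no other start in the promoter window 0.16 (632) against 0.10 for those with such a start (363). Promoters with a TATA box went with a median of 0.49 (23 genes) against 0.13 without (790), and those with the ETS core with 0.09 (247) against 0.16 (566). The 23 genes with a TATA box included 6 histone and 3 immediate early genes, from the lists with medians of 0.64 and 0.56. Ranking by the ratio per base instead gave 1000 genes with a median of -0.01 and 1 call. Ranking on the KO libraries alone gave a median of 0.13, and on the WT libraries alone 0.15.

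**Figure D5:**
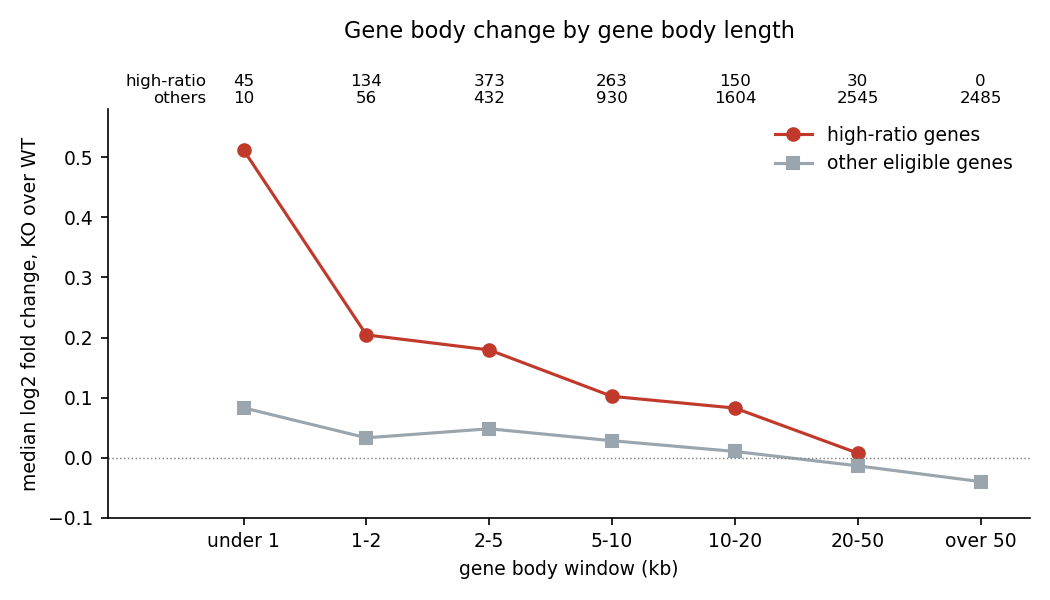
Median gene body log2 fold change of KO over WT by gene body length (kb) in high-ratio (red) and other eligible genes (grey), with the numbers of genes above the axis. The red median falls from 0.51 under 1 kb to 0.01 at 20 to 50 kb, and the grey from 0.08 to -0.04.

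The promoters of the same genes did not lie higher in KO as a group. Their median log2 fold change was -0.04, with quartiles of -0.14 and 0.07, and 401 of 1000 (40.1%) were above 0. Over all genes 54.8% were above 0, and in the other eligible genes 52.3%, with a median of 0.01. KO was below WT in all 3 pairs for 21.8% of the high-ratio promoters and 13.3% of all. The median of the high-ratio genes depended on the pair, at 0.08, -0.10 and -0.22 in pairs 1, 2 and 3, and reached 0.01 without pair 3. The other eligible genes had pair medians of 0.09, -0.01 and -0.10. At an unadjusted p under 0.05, 33 promoters (3.3%) were higher and 38 (3.8%) lower, against 7.55% and 2.4% of all genes. Beside 9130023H24Rik, 1 promoter was called, against 0.165% of all genes called higher and 0.00826% called lower: Hist1h4a, with 366, 393 and 125 reads in WT and 802, 430 and 297 in KO, a log2 fold change of 0.66 ± 0.12 (limma adjusted p = 0.093). The 2 next genes of smallest p on the higher side were Pcdh8 (0.96 ± 0.21, limma adjusted p = 0.153) and Mafa (1.43 ± 0.31, limma adjusted p = 0.158), both of them called in the gene body. On the lower side stood Tcte3, with 271, 0 and 81 promoter reads in WT and 161, 0 and 69 in KO (-0.91 ± 0.21, limma adjusted p = 0.178), and Naxe (-0.52 ± 0.13, limma adjusted p = 0.259). The promoters of genes called in the body did not all follow: Rhob stood at -0.04 ± 0.09, Srsf7 at -0.13 ± 0.09, Hist2h2aa2 at -0.17 ± 0.13, Ier2 at -0.16 ± 0.10 and Cebpa at -0.08 ± 0.12, while Arc stood at 0.34 ± 0.13 and Slc20a1 at 0.40 ± 0.11, with none of these 7 called. By list, 23 of 26 histone promoters were above 0 (median 0.11) and 16 of 21 immediate early ones (median 0.12), and 8 of 27 cytosolic ribosomal protein promoters (median -0.09).

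In the TES region the sign of the median depended on the scaling. The median log2 fold change was -0.05 and 409 of 1000 (40.9%) were above 0, against -0.08 and 34.4% over all genes. With TMM computed per region the median of the high-ratio genes was 0.03. In pairs 1, 2 and 3 it was -0.09, -0.04 and 0.08, against -0.15, -0.07 and -0.02 in the other eligible genes. Unadjusted p-values under 0.05 were found for 28 (2.8%) higher and 37 (3.7%) lower, against 1.4% and 4.84% of all genes. Both TES regions called were higher, where 0.0248% of all genes were. Slx1b, a structure-specific endonuclease subunit gene (chr7:126689468-126695784), had 6.25, 4.23 and 3.01 CPM in WT and 12.1, 9.21 and 7.22 in KO, with no overlap (1.07 ± 0.15, limma adjusted p = 0.0395). Its gene body (0.07 ± 0.11) and promoter (-0.19 ± 0.13) were not called. Hist1h3a had 51.3, 49.7 and 40.4 CPM in WT and 91.2, 57.98 and 66.5 in KO (0.59 ± 0.10, limma adjusted p = 0.0858). Its TES region (chr13:23759853-23761953) contains the Hist1h4a gene and its promoter window (chr13:23761130-23761630), so those calls count the same reads. Next on the higher side was Hist1h1a (0.89 ± 0.17, limma adjusted p = 0.113). On the lower side the smallest p belonged to Hes5 (-0.42 ± 0.10), Tmem107 (-0.43 ± 0.11) and Grina (-0.58 ± 0.17), each lower in all 3 pairs and with limma adjusted p of 0.217 to 0.339. The TES window of Hes5 holds the annotated start of Pank4, so its reads cannot be assigned to Hes5 alone. Signal beyond the transcript end stood highest relative to the gene body, over both genotypes, in Hist1h3a (5.39 times the body reads), Tmem107 (4.47), Hist2h2aa2 (4.41), Hist1h2ad (4.13) and Prrt2 (3.53). The annotation places the start of another protein-coding or long non-coding gene in that window for all but Tmem107. Starts of small RNA genes were not searched, so the window of Tmem107 may still hold such a start.

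Promoter and body were joined in a pausing index, taken here as log2 of promoter reads over gene body reads in each library. Its median difference between KO and WT was -0.23 in the high-ratio genes (851 of 1000 below 0) and -0.002 in the other eligible genes, with values by pair of -0.07, -0.24 and -0.39 against 0.10, -0.03 and -0.09. The index fell in all 3 pairs in 408 genes (40.8%), where 14.7% of all genes did so. At an unadjusted p under 0.05, 174 (17.4%) were lower and 1 higher, against 3.65% and 7.05% of all genes. None was called after adjustment, with the lowest adjusted p of 0.183 (limma), where 0.00827% of all genes were called lower. With the trend of the spread taken on the mean promoter count, 73 were called, all lower. Ranking per base gave a median of -0.10, ranking on KO libraries alone -0.21 and on WT libraries alone -0.26. The genes of smallest p were 9130023H24Rik, Hist2h2aa2 and 2300009A05Rik on the lower side. Hist2h2aa2 went from 4.86, 3.76 and 3.02 in WT to 4.06, 0.649 and 0.118 in KO (-2.27 ± 0.44, limma adjusted p = 0.247) and 2300009A05Rik from 0.893, 0.551 and -0.190 to 0.230, -0.386 and -1.86 (-1.09 ± 0.22, limma adjusted p = 0.247). Gadd45b gave 2.15, 1.12 and 1.01 in WT and 1.18, 0.188 and 0.00721 in KO (-0.97 ± 0.21, limma adjusted p = 0.247), lower in every pair. On the higher side were Lsm10 (0.46 ± 0.20), Mrps18b (0.38 ± 0.19) and Fcor (0.51 ± 0.26), with limma adjusted p of 0.431 to 0.511. The median over the 21 immediate early genes was -0.61 with 20 below 0, over 26 histone genes -0.53 with 24 below 0, and over 27 cytosolic ribosomal protein genes -0.29 with 24 below 0.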

How the data were processed

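POLR2A ChIP-seq reads were analysed for 3 WT and 3 Armc5 KO libraries. By the submitters' notes on processing, the tools included HOMER, MACS2, Picard, BWA, Trimmomatic and bcl2fastq 2.20, on GRCm38 (mm10), and the sources used here do not give the gene annotation behind the windows. Unnormalized whole-number counts per gene were deposited for each window, and a separate deposited table held the log2 CPM that the authors derived with TMM and voom. The authors had filtered out genes lacking KO signal, so a gene without any signal in KO cannot appear. Tests used the counts, and the log2 table gave an alternative.

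All 36321 windows (12107 genes) were scaled jointly by TMM and fitted with limma-voom, two-sided, with replicate pair as a block. The pausing index (pseudocount 0.5, limma) was tested in 12096 genes whose mean count reached 10 in promoter and body. Calls required an adjusted p under 0.1 (Benjamini-Hochberg). R 4.3.3 was used, with limma 3.58.1, DESeq2 1.42.0 and edgeR 4.0.16, and the fits were tested on simulated data. The median limma SE of the high-ratio genes was 0.14 at promoters, 0.13 in bodies and 0.19 at the TES. It includes the spread of the KO to WT difference between pairs and leaves out the spread that a pair shares. Wilson intervals on motif shares cover only the number of promoters counted.

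Groups and replicate numbers come from the titles. The study's methods speak of biological replicate pairs, and the labels do not say what a pair shares. The p-values measure the spread of the KO to WT difference between these pairs and leave out the spread that a pair shares. Libraries of 1 number deviated together (correlation of deviations 0.64 to 0.71 at promoters, 0.74 to 0.88 in bodies, 0.57 to 0.76 at the TES), so the numbers were taken to pair the samples. Libraries of a group were not copies (chi-square per degree of freedom 28.5 to 76.5).

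Genes were named by rule: the 10 highest ratios, the 5 highest promoter sums, 3 on either side of the cutoff, genes called per window up to 10 with the 3 of smallest p in each direction where fewer than 6 were called, up to 3 per list by promoter sum, the 5 highest TES to body ratios and marker genes. Not all are printed. Called genes beyond the tenth, leaders per base and ends of a list's range were named after their values were seen. The members and lists were chosen with earlier results of these data known.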

Additional observations from a re-analysis of the deposited data

How the results depend on the processing

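The gene body median of 0.14 stayed above 0 in every refit, between 0.12 and 0.16 over the leave-one-library and leave-one-pair fits. It was 0.19 in the 500 highest genes, 0.16 in those with no other start in the promoter window and -0.013 when genes were ranked per base. With the pair as a block, a library without its partner adds nothing to the genotype difference. Leaving out 1 library is therefore close to leaving out its pair, and these fits are not separate checks. Called gene bodies (19) numbered 0 without the replicate block, 8 with TMM per region, 41 without X- and Y-linked genes, 1 ranked per base, and 4 to 60 on leaving out a library or pair. Called promoters (2) numbered 0 without the block, 4 with TMM per region, 1 with the deposited log2 CPM, 4 without X- and Y-linked genes, 1 in the 500 highest, 1 in bodies of 1000 bases or longer, and 0 to 20 on leaving out a library or pair. Called TES regions (2) numbered 5 by DESeq2, 0 without the block, 10 with TMM per region, 1 with the deposited log2 CPM, 6 without X- and Y-linked genes, 0 ranked per base, 1 in the 500 highest, 1 in bodies of 1000 bases or longer, and 1 to 15 on leaving out a library or pair. Pausing index calls (0) numbered 73 when the variance trend followed promoter counts, 1 with a pseudocount of 1, 8 with a mean of at least 30 counts, 0 without the block, and 1 to 47 on leaving out a library or pair. The share of promoter reads in WT and KO replicate 3 was 14.9% and 13.98% without Gm-numbered genes. The cause of these shifts was not tested. Leaving out X- and Y-linked genes, the gene sets without other starts or without the histone and immediate early lists, the KO ranking and the pausing index under other rankings were added after the data were seen. Promoter signal in pair 3 limits what low promoters can show.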
